A study of Drosophila melanogaster with 6 samples.

Results

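The genes described here encode the small nuclear RNAs (snRNAs) of the spliceosome and the small Cajal body RNAs (scaRNAs) that guide their chemical modification. They were taken as every row of the deposited tables whose gene name starts with snRNA: or scaRNA:, which gave 46 of 15904 loci, 31 named as snRNA and 15 as scaRNA. The name rule also brought in 7SK and U7, which are nuclear RNAs outside the spliceosome, and a row for U3, a nucleolar RNA of ribosomal RNA processing. RNA came from the eye discs (precursors of the adult eyes) of Drosophila melanogaster larvae at the end of larval life, from 30 pairs of discs a library. There were 6 libraries in 3 groups of 2, and by the genotype labels each was w1118 with sev-GAL4 and UAS-GFP, although the series' design text names UAS-GFP for the control alone. Beyond these the control carried no further element, the RNAi larvae carried hsromegaRNAi, which targets the Hsromega lncRNA, and the overexpression larvae carried EP3037, an insertion from which the driver can raise Hsromega. The sev-GAL4 driver acts in a subset of developing retinal cells, whereas the RNA is that of whole discs.

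A spliceosome assembles on each intron from small nuclear ribonucleoproteins, each built on an snRNA. U1 pairs with the 5′ splice site, U2 pairs with the branch point, and U4, U6 and U5 arrive together, after which U4 leaves and U6 takes part in catalysis while U5 holds the exons. A rare class of introns uses U11, U12, U4atac and U6atac in place of U1, U2, U4 and U6. All but U6 and U6atac are made by RNA polymerase II, and most fly snRNAs are encoded by several nearly identical genes. The scaRNAs are mostly cut from introns of other genes, and their names state whether they guide ribose methylation (Me) or pseudouridine formation (Psi) and the RNA they act on. Hsromega transcripts organise nuclear speckles that hold hnRNP proteins, which bind pre-mRNA.

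Each table gives one FPKM value per group, fragments scaled by gene length and by mapped fragments, pooled by the authors over both libraries. No library-level spread or depth could therefore be given, and each call below rests on the authors' deposited Cuffdiff test, read at q (the adjusted p) of 0.05 or less. The only measure of error is the ratio of the log2 fold to the deposited test statistic, used below as an implied SE. Hsromega itself had an FPKM of 202, 204 and 376 in control, RNAi and overexpression discs, with q of 0.997 and 0.758 in the authors' deposited table, so neither label is borne out by a call on its target. The 13 eye disc markers looked up were all at FPKM 1 or more in each group, with summed levels of 396, 233 and 218. Summed FPKM of 7 salivary gland markers was 46.4, 3171 and 79.5 in control, RNAi and overexpression discs, with ng1 listed at 0 in each. That of 7 fat body markers was 53.6, 188 and 101, with none at 0, and that of 6 gut markers was 2.64, 4.19 and 153, with Amy-p at 0 in the control and alphaTry in the RNAi group. Summed levels were 1699, 958 and 1844 for 5 muscle markers, 15.1, 17.8 and 16.3 for 5 haemocyte markers and 13.2, 8.40 and 6.30 for 5 neuron markers, with none at 0. In the authors' deposited tables, 3 salivary gland and 4 fat body markers were called as higher for RNAi, and 3 gut markers as higher and the eye disc markers gl and lz as lower for overexpression. The neuron marker brp was called as lower in both, and no other marker was called. These calls rest on the deposited q. With Benjamini-Hochberg recomputed over all tested loci of each comparison, 14 loci passed for RNAi and 0 for overexpression. The marker calls for overexpression would thus be lost. The part of such tissues or cells in the snRNA values was not tested.

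The near-identity of copies also limits the names. Of the 46 loci, 14 have a span equal to an annotated gene and 26 lie in a wider span that holds the annotated gene of their name. The other 6 could not be tied to a single gene of that name by coordinates. A total of 4 names serve 9 rows: U1:95Ca, U2:34ABb and U2:38ABb occur on 2 rows each and a U6 name on 3. The second U2:34ABb row spans the annotated U2:34ABc. Single copies are given below with this reservation, followed by the sum over the class, which brings together fragments divided between copies. How fragments that fit several copies were counted is not stated, and the sums may depend on it.

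In the control, the highest of these loci was 7SK at FPKM 22459, rank 4 among all loci, followed by U4:39B at 17024, rank 8. They and 5 others, U11, U1:82Eb, U4:38AB, U5:63BC and MeU5-C46, were among the 100 highest loci. At the other end, 9 loci were listed at 0 in each group: U1:21D, both rows of U1:95Ca, the 3 U6 rows, U3:22A, MeU2-C28 and MeU5-G38. U6 is present in every splicing cell, so a listing at 0 is not read as absence. Summed over the 46 loci, FPKM was 57184 in the control, 79383 in the RNAi group and 94140.0 in the overexpression group, or 6.48%, 6.58% and 7.56% of the FPKM of all loci, whose total was itself higher in both treated groups. Class sums in the control came to 19587 for U4, 5461 for the minor class, 3263 for U1, 2855 for U5 and 81.0 for U2. The annotated genes run from 49 bases for MeU2-C28 and 71 for U7 to 444 for 7SK, and FPKM of RNAs this short depends on the assumed fragment length, which the sources used here do not state, so these levels do not rank the RNAs by abundance. Comparisons below are of one locus or class between groups.

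**Figure D1:**
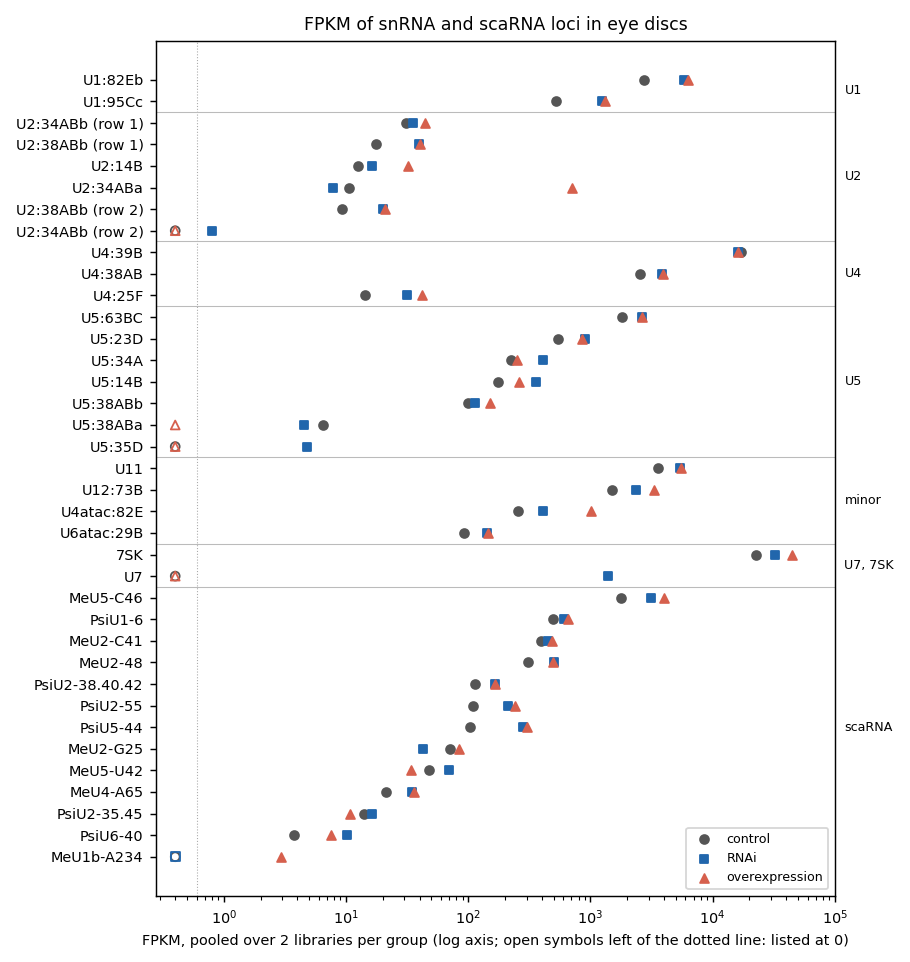
FPKM of the 37 snRNA and scaRNA loci above 0 in at least 1 group, on a log axis, with one pooled value per group and locus. Open symbols left of the dotted line mark values listed at 0, and (row 1) and (row 2) mark names that occur on 2 rows. U2:34ABa stands apart at 708 in the overexpression group against 10.7 and 7.88.

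One member was called in either comparison, the U2 gene U2:34ABa in the overexpression group. It lies on the minus strand of chromosome 2L at 13211925 to 13212116 (dm6), is 192 bases long and has no host gene on its strand. Its FPKM was 10.7 in the control, 7.88 in the RNAi group and 708 in the overexpression group, a 66.3-fold rise over the control. It thus moved from rank 5190 to rank 213 among all loci, while the RNAi value lay slightly under the control. The log2 fold was 6.05 with an implied SE of 1.26, a 95% interval of 3.59 to 8.52 from the deposited statistic of 4.81. The authors' deposited Cuffdiff table gives p = 0.00185 and q = 0.0278. That p is larger than the statistic gives as a normal score, so the interval may be too narrow. With Benjamini-Hochberg recomputed over the 11372 tested loci of that table the smallest adjusted p of a member was 0.248, and no locus of the table passed, so the deposited q rests on another set of tests, which is not stated. This 1 call of 34 tested members stands beside 1.2% called over all tested loci, with 0.132% called as raised and 1.06% as lowered. It was also the 1 member at an unadjusted p of 0.05 or less, where 6.16% of all tested loci stood. In whole discs, more cells with an RNA and more RNA per cell cannot be told apart.

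None of the other U2 loci was called. U2:34ABb on the row that equals its gene, 3722 bases from U2:34ABa, was at 30.8, 35.4 and 43.9 in control, RNAi and overexpression discs. U2:14B on the X chromosome was at 12.5, 16.4 and 32.3. The U2:38ABb rows stood at 17.7, 39.9 and 40.6 and at 9.35, 19.9 and 20.8, and the second U2:34ABb row was listed at 0, 0.807 and 0. Both treated groups were above the control in each of these rows except the second U2:34ABb row, which was above 0 in the RNAi group alone. The summed U2 FPKM was 81.0, 120 and 845, a log2 ratio of 0.57 for RNAi, which turned to -0.0176 relative to the snoRNA median (a scaling described further on), and 3.38 for overexpression. Without U2:34ABa the sums were 70.3, 112 and 138, and the overexpression ratio came to 0.97. The share of U2:34ABa in the U2 sum was 13.2% in the control, 6.55% in the RNAi group and 83.7% in the overexpression group. Whether it differed from the other copies was not tested, since the tables hold no library values.

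No locus around U2:34ABa was called in the overexpression comparison, a count near the background of 1.2%. Within 50 kb lie 33 loci other than snRNAs, of which 26 were tested and 0 called in the overexpression comparison by Cuffdiff, with 0 at an unadjusted p of 0.05 or less. Their log2 folds ran from -1.09 for CG16972 to 0.94 for the locus of CG5945 and CR45330, with a median of 0.18 and a smallest q of 0.740. On either side lie Pect, an enzyme gene of phospholipid synthesis, at FPKM 11.6, 15.2 and 16.9, and kek4, at 0.298, 0.323 and 0.406 in control, RNAi and overexpression discs. U5:34A, in the same cluster of snRNA genes, was at 222, 406 and 251.

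**Figure D2:**
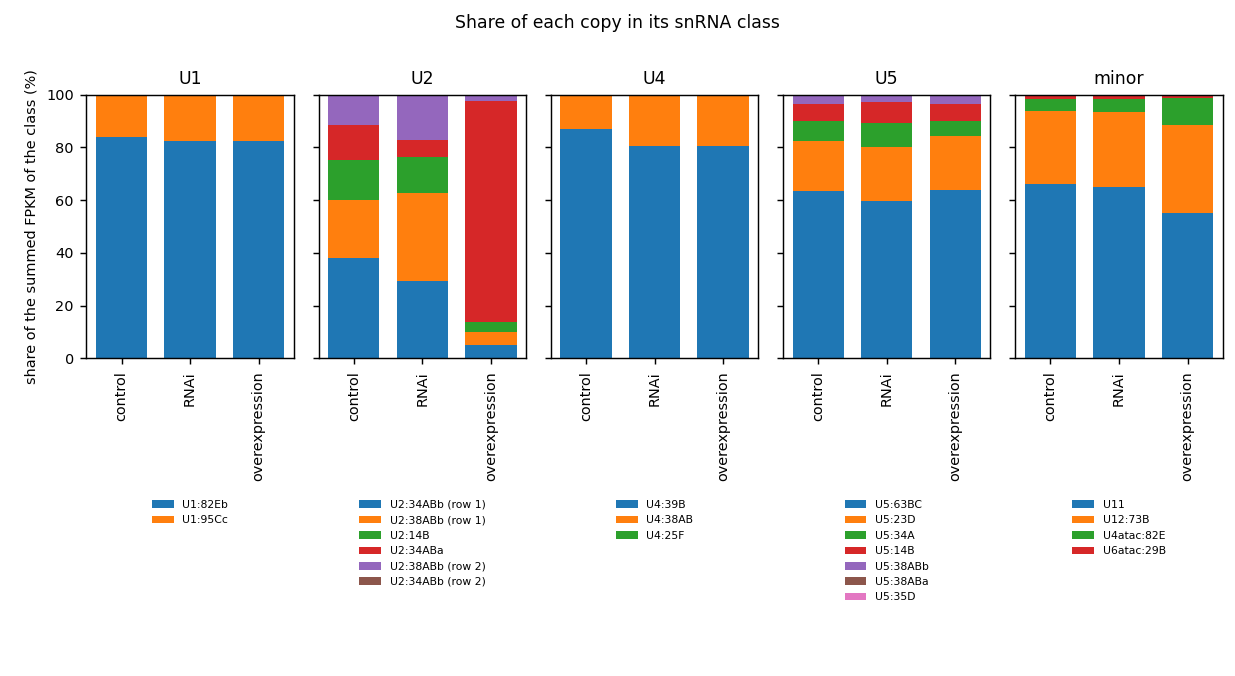
Share of each locus in the summed FPKM of its class, in percent, for U1, U2, U4, U5 and the minor class in each group; each bar sums to 100% and loci at 0 in every group are left out. U2:34ABa holds 83.7% of U2 in the overexpression group, whereas U1:82Eb holds 84.0%, 82.5% and 82.5% of U1 in control, RNAi and overexpression discs.

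Among the RNAs that recognise the 5′ splice site, U1 stood higher in both treated groups without a call. U1:82Eb (chromosome 3R, 4947933 to 4948096) was at 2740.2, 5816 and 6235 in control, RNAi and overexpression discs. Its folds were 2.12 and 2.28, with log2 intervals of -0.64 to 2.81 and -0.54 to 2.91 from the implied SE and q of 0.491 and 0.428 in the authors' deposited table. Its p of 0.116 was the lowest of any member in the RNAi comparison. U1:95Cc, which lies in an intron of CG34355, was at 523, 1233 and 1319.5, with q of 0.900 and 0.894. The U1 sum was 3263, 7049 and 7554, log2 ratios of 1.11 and 1.21, or 0.52 and 0.50 relative to the snoRNA median, and U1:82Eb held 84.0%, 82.5% and 82.5% of it.

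U4, which unwinds from U6 before catalysis, had the class sum with the smallest log2 ratios in the values as deposited, but not relative to the snoRNA median. U4:39B (chromosome 2L, in an intron of Atg18b) was at 17024, 16198 and 16228 in control, RNAi and overexpression discs. Both log2 folds were -0.07, with intervals of -1.79 to 1.64 and -1.68 to 1.55. U4:38AB, in an intron of sick, was at 2549, 3858 and 3904, and U4:25F at 14.3, 31.5 and 41.6. The smaller copies thus had higher values in both treated groups and the main copy did not. U4:39B had q of 0.994 in both comparisons in the authors' deposited table, and no U4 locus was called. The class sum was 19587, 20088 and 20173, with log2 ratios of 0.0364 and 0.0425, which turned to -0.55 and -0.67 relative to the snoRNA median. Without U4:39B the ratios were 0.60 and 0.62.

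U5, which contacts both exons, showed higher values for its larger copies in both treated groups, and none was called. U5:63BC (chromosome 3L) was at 1810.7, 2658 and 2667, and U5:23D at 539, 903 and 854. U5:34A was at 222, 406 and 251 and U5:14B at 176, 358 and 262, both highest in the RNAi group. U5:14B and U2:14B lie 554 bases apart on opposite strands of the X chromosome. In value, U5:14B was highest in the RNAi group and U2:14B in the overexpression group. For RNAi and overexpression, the implied SE on the log2 scale was 1.24 and 1.19 for U5:14B and 1.07 and 0.91 for U2:14B. Each of these intervals against the control included 0. U5:38ABb was at 99.9, 114 and 149.7. U5:38ABa was at 6.51 and 4.54 in control and RNAi discs and listed at 0 in the overexpression group, and U5:35D was listed at 0, 4.77 and 0. The U5 sum was 2855, 4448 and 4184, log2 ratios of 0.64 and 0.55, or 0.0510 and -0.16 relative to the snoRNA median, where the second turned its sign. U6, the catalytic partner, had no value above 0 on any of its 3 rows, so its class gave no ratio.

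The 4 minor spliceosome RNAs had higher FPKM as deposited in both treated groups, with no call. U11 (chromosome 3L, 275 bases), the counterpart of U1, was at 3604, 5421 and 5516 in control, RNAi and overexpression discs, and U6atac at 92.7, 143 and 145. U12, the counterpart of U2, was at 1510.3, 2368 and 3342, and U4atac, which lies in an intron of cno, at 253, 407 and 1012. U12 and U4atac were highest in the overexpression group, while U11 and U6atac had nearly the same value in both treated groups. For U4atac the overexpression fold was 3.99, at a log2 interval of -4.35 to 8.34 and q = 0.811 in the authors' deposited table. Its host cno, a gene of cell junctions, went the other way in value, at 27.5, 9.97 and 9.16, also without a call (q of 0.224 and 0.263). The summed minor FPKM was 5461, 8339 and 10016, log2 ratios of 0.61 and 0.88, or 0.0222 and 0.16 relative to the snoRNA median.

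Of the RNAs outside the spliceosome, 7SK, which holds the elongation factor P-TEFb inactive, was at 22459, 32407 and 44857. Its folds of 1.44 and 2.00 had an implied SE of 1.36 and 1.38 on the log2 scale, with q of 0.928 and 0.708 in the authors' deposited table. The scaRNA gene MeU5-C46, in an intron of CG1142, lies 1330.0 bases from it on the same strand. MeU5-C46 was at 1790.3, 3134 and 3995, the same order of groups. Of 32 members above 0 in every group, 27, or 84.4%, were lowest in the control. The share was 39.5% of all such loci and 75.5% of such snoRNA loci. U7, which directs the cutting of histone pre-mRNA, was listed at 0 in the control, 1399 in the RNAi group and 0 in the overexpression group. The authors' deposited table gives p = 0.166 and q = 0.590 for this contrast, and no fold is given against a group at 0. Its host Eip63E, a cyclin-dependent kinase gene, was at 33.97, 25.3 and 17.2.

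Across the members, values were mostly higher in the treated groups, as were those of other small RNAs. For RNAi, 31 of the 35 members that reached FPKM 1 in either group were higher than the control, against 47.1% of 9891 such loci overall. For overexpression it was 30 of 34, against 51.8% of 9977. Median differences of log2(FPKM + 0.1) were 0.65 for RNAi and 0.67 for overexpression, beside -0.04 and 0.03 over all loci. Among snoRNA loci, the other class of short nuclear RNAs in the tables, 174 of 228 were higher for RNAi and 179 of 232 for overexpression, with medians of 0.59 and 0.71. In the 248 snoRNA rows that name 1 gene the medians were 0.67 and 0.79. Relative to the median over all snoRNA loci, the members' medians came to 0.0601 and -0.0395, so the overexpression median turned its sign. The medians of the snoRNA rows with 1 gene exceed both members' medians, so relative to them the RNAi median would turn too. So would the RNAi ratios of the class sums of U5 (0.64) and the minor class (0.61). The comparisons share their control libraries, so the like medians are not independent. Of 32 members above 0 in every group, the control was lowest for 27, or 84.4%, beside 39.5% of all loci and 75.5% of snoRNA loci above 0 in every group. It was highest for 1, U4:39B.

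**Figure D3:**
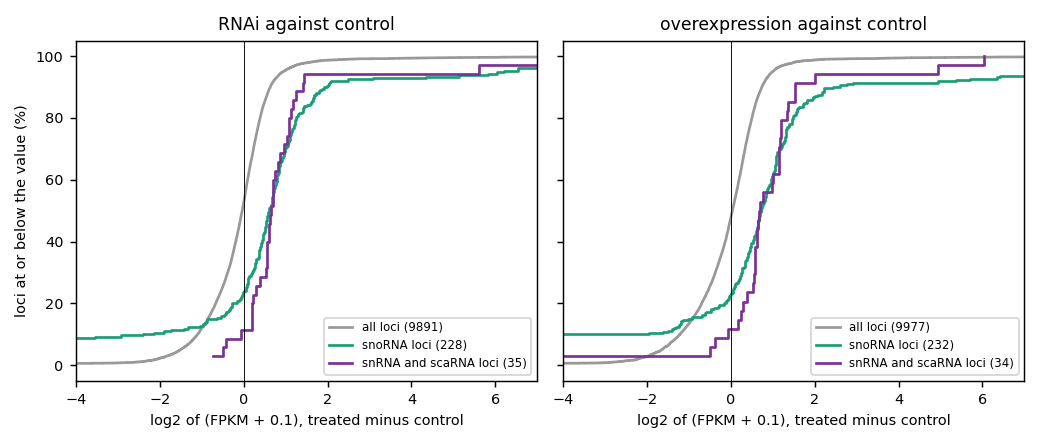
Cumulative share of loci, in percent, by the difference in log2(FPKM + 0.1) between each treated group and the control, for loci that reached FPKM 1 in either group; numbers of loci are in the legend. The snRNA and scaRNA curve lies to the right of that of all loci, near the snoRNA curve, with medians of 0.65 and 0.67 against 0.59 and 0.71.

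None of these differences was called for RNAi: 0 of 35 tested members passed in the authors' deposited Cuffdiff test, and 0 stood at an unadjusted p of 0.05 or less, where 0.822% of all tested loci were called (0.212% raised and 0.61% lowered) and 4.5% had such a p. Log2 folds of the 33 members with values in both groups ran from -0.74 to 1.44. The smallest log2 fold that was called at any locus of that table was 1.48 in size, and none of these 33 members reached it. In the overexpression table it was 1.61, and of the 32 members with values in both groups U2:34ABa and U4atac, at 2.00, exceeded it. The error was wide: the implied SE had a median of 1.92 for RNAi and 1.93 for overexpression among members, against 1.03 over all loci, and it was under 1.5 for 14 of 33 and 15 of 32 members.

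**Figure D4:**
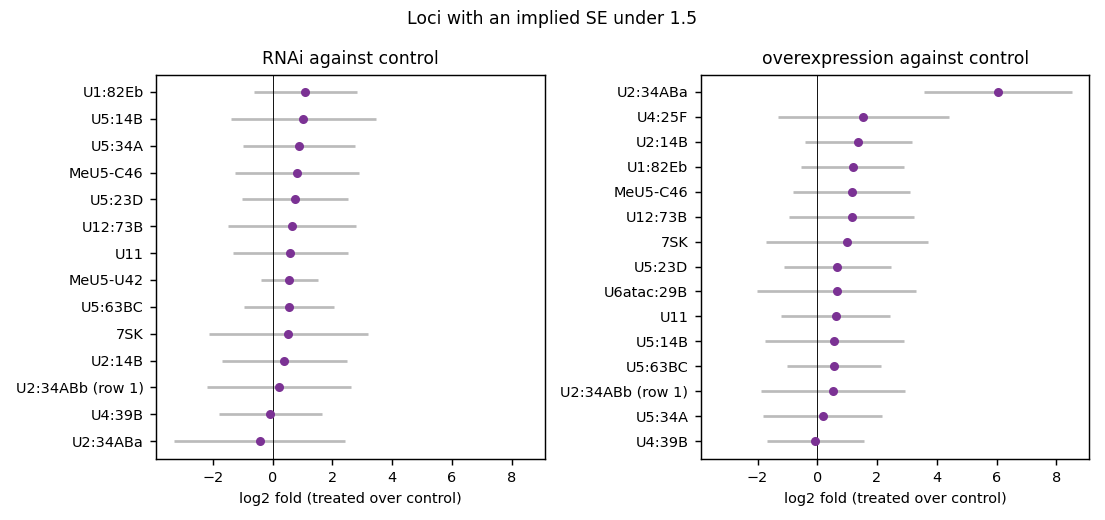
Log2 fold of each treated group over the control for members with an implied SE under 1.5 (14 for RNAi, 15 for overexpression); points are the folds and bars the 95% interval from the implied SE. All intervals but that of U2:34ABa under overexpression include 0. The narrow bar of MeU5-U42 under RNAi (implied SE 0.484) does not match its deposited Cuffdiff p of 0.830. Its implied SE under overexpression was 6.85.

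Most scaRNAs, too, had higher values in the treated groups, without a call. The guide MeU5-C46, of U5 methylation, was the highest, followed by PsiU1-6, of U1 pseudouridylation, at 497, 611 and 652. Guides of U2 modification were MeU2-C41 at 395, 449 and 481, MeU2-48 at 311, 504 and 497, PsiU2-38.40.42 at 113, 166 and 167, and PsiU2-55 at 109, 212 and 243. PsiU2-35.45, named for 2 positions of U2, was at 13.98, 16.3 and 10.7 and MeU2-G25 at 71.5, 43.0 and 84.0. The group with the highest value thus differed among guides of U2, though the error was far wider than these differences. For RNAi and overexpression, the implied SE on the log2 scale was 22.7 and 27.0 for PsiU2-35.45. It was 30.5 and 26.4 for MeU2-G25. Guides of U5 were PsiU5-44 at 104, 282 and 300.2 and MeU5-U42 at 47.5, 70.2 and 33.7. The U4 guide MeU4-A65 was at 21.3, 34.6 and 36.3 and the U6 guide PsiU6-40 at 3.78, 10.3 and 7.51. MeU1b-A234 was at 2.94 in the overexpression group and listed at 0 in the others. None of the 12 tested for RNAi or the 13 tested for overexpression was called by Cuffdiff, and none had an unadjusted p of 0.05 or less. The largest folds with values in both groups were those of PsiU6-40 and PsiU5-44 for RNAi, 2.71 and 2.70, and of PsiU5-44 for overexpression, 2.88. On the log2 scale the implied SE for RNAi was 34.9 for PsiU6-40 and 2.19 for PsiU5-44. For overexpression it was 2.04 for PsiU5-44.

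By the annotation, 14 of the 15 scaRNA genes lie in an intron of a gene on the same strand, as do 7 snRNA genes. Of the 12 scaRNAs with folds for themselves and the host, the host was higher than the control for 5 in each comparison, and the scaRNA for 11 under RNAi and 10 under overexpression. The scaRNA fold exceeded that of its host in 11 of 12 in each. Medians were 0.63 for the scaRNAs and -0.20 for the hosts under RNAi, and 0.62 and -0.22 under overexpression. The error was wider than these gaps: the scaRNAs' implied SE had a median of 3.65 for RNAi and 4.02 for overexpression. PsiU2-55 lies in Prp8, which encodes the central protein of the U5 particle: the host was at 49.0, 33.4 and 29.6 while the scaRNA was at 109, 212 and 243. PsiU5-44 lies in tra2, a splicing regulator of sex determination, which was at 21.5, 26.1 and 30.4. MeU2-G25 lies in the locus of mask, which was at 63.1, 13.8 and 9.41, and PsiU6-40 in skd, a Mediator kinase module gene, at 23.7, 8.31 and 7.74. No host was called in either comparison, with the smallest q of 0.126 for mask under overexpression. The difference between scaRNA and host was not tested, and the host's transcript and the short RNA differ in length.

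**Figure D5:**
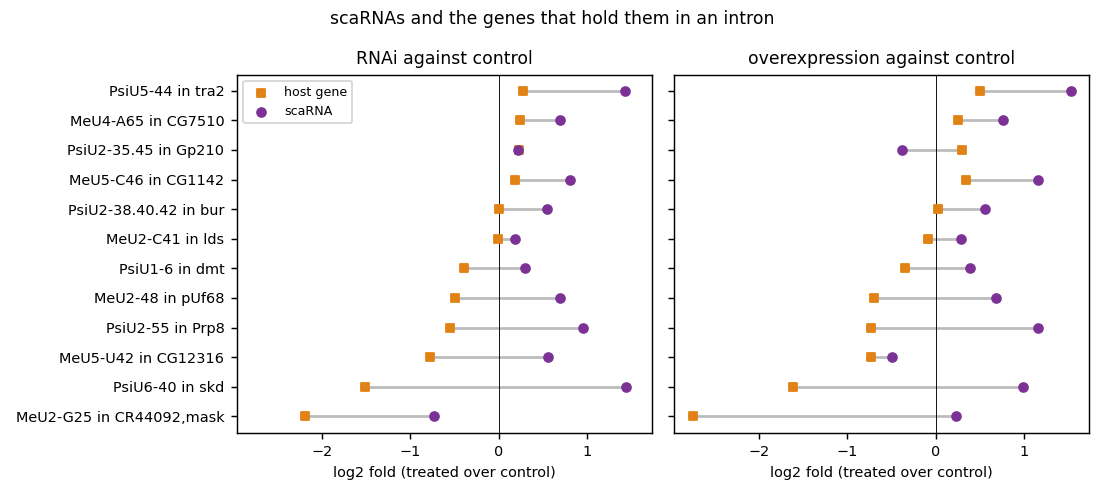
Log2 fold over the control of 12 scaRNAs (circles) and of the genes that hold them in an intron (squares), joined by a line, for each comparison. In 11 of 12 pairs of each panel the scaRNA lies to the right of its host. The implied SE of the scaRNAs, not drawn, had a median of 3.65 for RNAi and 4.02 for overexpression.

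Between the treated groups, which share no libraries, most members had similar values. Over the 32 members above 0 in every group, the median of log2 overexpression over RNAi was 0.0790, beside 0.0426 over all such loci, and 25 were higher in the overexpression group, or 78.1%, against 54.9% of all such loci. Among snoRNA loci the median was 0.0974 and 59.2% were higher. Class ratios were 0.10 for U1, 2.81 for U2, 0.00615 for U4, -0.0882 for U5 and 0.26 for the minor class. Beyond U2:34ABa at 6.49, the largest differences were U4atac at 1.31, MeU5-U42 at -1.06 and U2:14B at 0.98. No deposited test sets these groups against each other.

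No gene on the lists of snRNA pathway proteins was called, where 0.822% of all tested loci were called for RNAi and 1.2% for overexpression, so the counts are near the background. Of the list of snRNP proteins (Sm ring, particle-specific proteins and LSm proteins), 34 loci were tested in both comparisons and 0 were called by Cuffdiff, with 0 at an unadjusted p of 0.05 or less. The median was 0.18 for RNAi and 0.33 for overexpression. SmB, of the Sm ring that binds U1, U2, U4 and U5, was at 73.2, 110.4 and 128. LSm7, of the ring that binds U6, was at 54.2 and 92.7 in control and RNAi discs, and CG9344, listed with the LSm proteins, at 83.2 and 147 in control and overexpression discs. Prp8 was lower in value in both treated groups. Their q lay between 0.528 and 0.777 in the authors' deposited table.

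The list for making snRNAs held transcription, 3′ end cutting by Integrator, export, Sm ring assembly by the SMN complex, and Cajal body genes. Of 41 tested loci 0 were called by Cuffdiff, with 1 at an unadjusted p of 0.05 or less for RNAi and 2 for overexpression, beside 4.5% and 6.16% of all tested loci, and medians of -0.15 and -0.03. The Integrator gene IntS6 was at 7.65, 3.75 and 2.98 in control, RNAi and overexpression discs, with q of 0.466 and 0.257. CG9305, matched to the RNA polymerase III factor gene Bdp1, was at 5.13, 1.93 and 2.02, with q of 0.248 and 0.291. Gem3, of the SMN complex, was at 4.06 and 6.81 in control and RNAi discs, and IntS14 at 9.88 and 5.58 in control and overexpression discs.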

How the data were processed

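Total RNA from eye discs was depleted of ribosomal RNA, made into stranded libraries and read as paired 50 nt reads over 2 lanes, per the labels' protocols. TopHat, Bowtie, Cufflinks, Cuffdiff 2.1.1 and the dm6 build are named in the submitters' processing notes; the other versions, the annotation, the treatment of reads that fit several copies and the fragment lengths are unstated in the sources used here. The authors deposited FPKM pooled over both libraries of a group, with the Cuffdiff test statistic (a score), p-value and q-value, per the file headers. Depth is unknown. Since no label tells whether replicates are separate cultures, the p-values may reflect technical spread only.

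Folds were computed from the deposited FPKM as treated over control, with the signs of the overexpression table turned; medians used log2(FPKM + 0.1) of loci that reached FPKM 1 in either group. The planned limma fit needed library values and was not run. Annotation is Ensembl release 115 on dm6; coordinates are 1-based. Python 3.11.15 and pandas 2.3.3 were used, and the calculations were tested on simulated data. All snRNA loci were named, as were scaRNA loci at FPKM of 1 or more, called pathway genes, and up to 3 pathway genes per list and comparison with the smallest p at FPKM of 5 or more. Neighbouring and host genes were named after their values were seen. Members and lists were chosen with earlier results of these data known. Of 42 snRNP and 43 biogenesis symbols, 2 and 1 matched no locus, and several named the same locus. Older symbols were matched through RefSeq on the same build where the locus overlaps the gene.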

Additional observations from a re-analysis of the deposited data

How the results depend on the processing

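A total of 52 alternatives were run over 14 results, and 38 left the result as it was. A value without a test counts as moved when its linear fold changes by 1.5 times or its log2 value turns its sign. The snoRNA medians, 0.59 and 0.71 on the log2 scale, each exceed that 1.5 times. Every value recentred on them therefore counted as moved by construction, and the tally is partly fixed in advance. The U2:34ABa call was lost with Benjamini-Hochberg recomputed over the table (0 of 34). It was kept with p taken from the test statistic as a normal score. The deposited p is larger than that score gives, so this setting adds no support to the call. RNAi gave 0 under each alternative. Relative to the snoRNA median, the member medians became 0.0601 (RNAi) and -0.0395 (overexpression), and class sums for RNAi and overexpression became 0.52 and 0.50 for U1, -0.0176 and 2.67 for U2, -0.55 and -0.67 for U4, 0.0510 and -0.16 for U5, and 0.0222 and 0.16 for the minor class. Without U2:34ABa the overexpression ratio of U2 was 0.97, and without U4:39B the U4 ratios, close to 0 with it, were 0.60 and 0.62, just inside the 1.5 times. The cause of these shifts was not tested beyond the construction of each alternative. Pseudocounts, FPKM filters, weighting by length and recentring on all loci changed no result. No member joined several genes, so leaving such loci out could not change a result. The copies of U1, and those of U2, were taken at equal length, so weighting by length could not move their ratios. U6 gave no ratio. Leaving out libraries was not possible with pooled values. No paired analysis was possible because the tables hold one pooled value per group.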
